A study of Homo sapiens with 6 samples.

Results

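The 10 genes described here belong to the making and handling of gangliosides and globosides, the sialylated and the neutral galactose-bearing glycosphingolipids of the outer cell membrane. They were chosen by name, and every probe set that the platform annotation gives to 1 of them alone was read. These were 29 of 54613 probe sets that are not controls, for 10 of 19775 genes named in this way. Of the 29, 25 passed the filter on low values and 4 did not, 2 of them for B4GALT6 and 1 each for B4GALNT1 and B3GALT4. No probe set named a member together with another gene.

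The 6 arrays form 2 groups of 3. The first carries titles with wtCopFry and the cell line label 231wCFry, a clone derived from MDA-MB-231 cells by stable transfection with wild-type Cop rat Fry cDNA of 10791 base pairs and puromycin selection. The second is labelled as MDA-MB-231 that was not transfected. MDA-MB-231 is an established, mesenchymal-like human breast tumour line, and the Fry protein is a scaffold for kinases of the NDR family. Both groups grew as monolayers in the same medium with 10% serum and were taken at 70% confluence. The clone was picked for a Fry level near that of the normal mammary line MCF10A, it is 1 clone, and no clone with an empty vector is described. Samples of a line differed in passage, which is given for none of them, and no separate cultures are named, so p-values measure only the spread between these samples, which may be technical. Signals are MAS5 values in arbitrary units, and the number of arrays limits their precision.

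The labelled cell type was read first. The human FRY gene did not check the transgene: its 4 probe sets reached 5.0 on the 231wCFry arrays and 9.8 on the untransfected arrays, and the cDNA is of rat. The summed signal of 10 epithelial and breast line markers was 8709 to 10561 on the 231wCFry arrays and 14250.5 to 14740 on the untransfected arrays. KRT19, a keratin of simple epithelia, stood at 1.1 ± 0.35 against 1669 ± 43.5 (SD, n = 3 each), EPCAM, an epithelial adhesion molecule, at 4.6 ± 2.29 against 234 ± 31.7, and vimentin (VIM) at 3954 ± 521 against 3463 ± 200. VIM and CD44 (3703 ± 359 against 3052 ± 173) were not lower and hold a large part of this summed signal in both groups. The summed signal of 8 of 10 neural crest and melanocyte markers that could be read was 5123 to 5595 on the 231wCFry arrays and 385 to 470.0 on the untransfected arrays, and 7 of the 8 were higher. Of all tested genes, 34.1% were higher and 33.1% lower on the 231wCFry arrays. SOX10, a neural crest transcription factor, stood at 1395 ± 22.3 on the 231wCFry arrays and 0.43 ± 0.32 on the untransfected arrays, and PMEL, a melanosome protein, at 5.17 ± 2.67 and 10.8 ± 5.63. Of 9 tested epithelial and breast line markers 6 were lower and 1 higher on the 231wCFry arrays, against those same shares of all tested genes. KRT19 was not above background on the 231wCFry arrays, while SOX10 was not above background on the untransfected arrays. KRT8, KRT7, KRT18, KRT19, EPCAM and GATA3 were lower and CD44 higher, VIM and CDH1 did not pass, and ESR1 was under the filter. SOX10, S100B, ERBB3, CDH19, MITF, TYR and MLANA were the 7 higher markers of the other list. These markers go against the label of the 231wCFry arrays and stand beside every result below; their part in them was not tested. The GAPDH 3'-to-5' signal ratio, which reflects RNA integrity, lay at 1.24 to 1.33 for the 231wCFry arrays and 1.36 to 1.39 on the untransfected arrays, and its part was not tested either. Less RNA per cell and fewer expressing cells cannot be told apart in such samples.

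Glycosphingolipids are built stepwise in the Golgi apparatus. UGCG adds glucose to ceramide, and B4GALT5 or B4GALT6 adds galactose to make lactosylceramide, from which the branches part. ST3GAL5 adds sialic acid to give the ganglioside GM3, ST8SIA1 adds another to give GD3, B4GALNT1 extends GM3 and GD3 to GM2 and GD2, B3GALT4 adds galactose to give GM1 and GD1b, and ST3GAL2 sialylates these further. A4GALT takes lactosylceramide to Gb3, the first globoside-series lipid and the receptor of Shiga toxin, and GM2A presents GM2 to its lysosomal hydrolase. GD3 and GD2 are known as surface antigens of melanoma and other neural crest tumours. Only transcripts were measured here, not lipids.

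The transcripts for the first 2 sialylation steps, ST3GAL5 and ST8SIA1, were the members with the largest rises in the 231wCFry arrays, 5.43-fold and 10.9-fold as ratios of mean signal. B4GALT6, a lactosylceramide synthase, rose as well, while A4GALT and B3GALT4 fell to signals at or near background. UGCG, at the entry to the pathway, did not pass the test. By the brightest probe set of each gene, 3 of the 10 genes rose, 4 fell and 3 did not pass. Among all 13630 genes tested in the same way 67.1% passed (34.1% higher, 33.1% lower), so the number of members called is near what the whole array shows. The test was limma on log2(signal + 16), with p-values adjusted over all 32771 probe sets that passed the filter by the Benjamini-Hochberg method and a threshold of 0.05.

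Over single probe sets, 5 of the 25 tested rose, 8 fell and 12 did not pass, where 62.6% of all tested probe sets passed, with a median log2 difference of -0.06, against -0.02 for all tested probe sets. Of all tested probe sets, 30.3% rose and 32.3% fell. In a fit without the filter, 5 of all 29 rose and 9 fell, where 18.3% and 19.7% of all 54613 did. The 231wCFry and untransfected signals did not overlap in 14 of the 25 tested, against 67.4% of all tested probe sets. At a log2 difference of at least 1 in size, the called genes were ST3GAL5, ST8SIA1, B4GALT6, B3GALT4 and A4GALT, while 23.2% of all tested genes passed at that size.

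**Figure D1:**
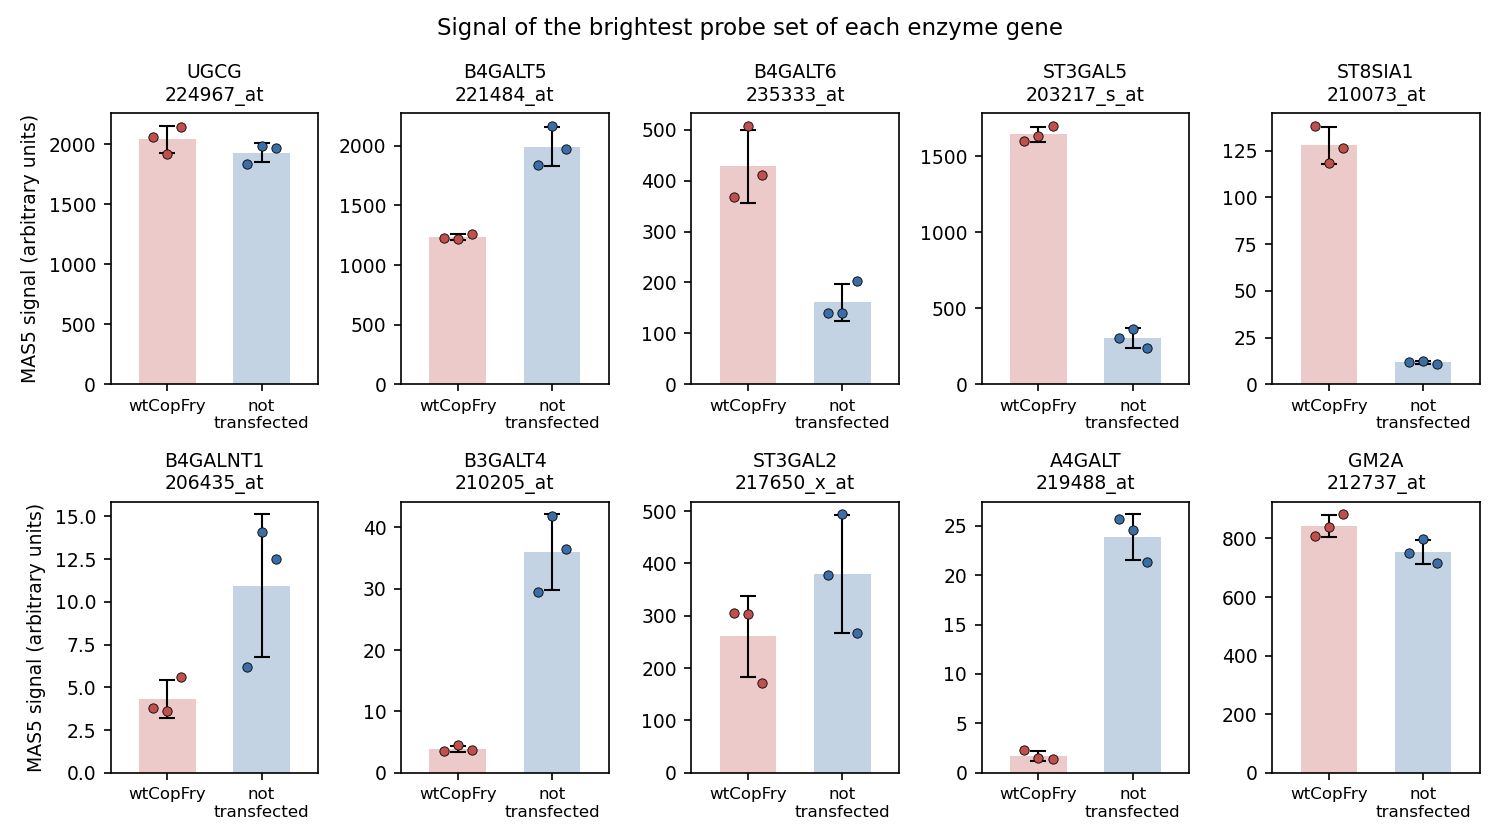
MAS5 signal (arbitrary units, linear axis from 0) of the brightest probe set of each of the 10 genes, in the 3 wtCopFry (231wCFry) arrays on the left and the 3 untransfected arrays on the right of each panel. Points are arrays, bars are means and error bars are SD; ST3GAL5 reads 1644 against 303 and ST8SIA1 128 against 11.7, while the panels of UGCG and ST3GAL2 overlap.

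The starts of the genes with the largest changes for which a promoter was given are shown first, since ST3GAL5 and A4GALT act on the same lipid and moved in opposite directions, and ST8SIA1 acts next after ST3GAL5. Promoters of 6 members were matched in the RefSeq table of build GRCh38.p14 (ST8SIA1, ST3GAL5, A4GALT, UGCG, B4GALT5 and GM2A), each 300 bases from 250 before the start. ST3GAL5 has 5 listed starts and A4GALT 2, and the one listed first is printed. Capitals mark the GC box GGGCGG on either strand.
ST8SIA1, chr12:22334658-22334957, minus strand: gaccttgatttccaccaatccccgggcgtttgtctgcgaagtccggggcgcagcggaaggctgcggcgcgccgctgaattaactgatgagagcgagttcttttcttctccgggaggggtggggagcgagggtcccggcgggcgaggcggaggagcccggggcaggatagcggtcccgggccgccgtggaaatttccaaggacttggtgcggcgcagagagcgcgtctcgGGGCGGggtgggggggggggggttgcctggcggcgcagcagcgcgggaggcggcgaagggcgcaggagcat
ST3GAL5, chr2:85888941-85889240, minus strand: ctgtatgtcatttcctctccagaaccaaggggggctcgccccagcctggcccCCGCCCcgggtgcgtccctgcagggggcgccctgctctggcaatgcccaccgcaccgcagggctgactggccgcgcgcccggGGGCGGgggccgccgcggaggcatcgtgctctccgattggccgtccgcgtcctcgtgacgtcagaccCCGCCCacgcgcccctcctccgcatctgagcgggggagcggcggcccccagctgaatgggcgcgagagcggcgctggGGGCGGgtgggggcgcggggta
A4GALT, chr22:42720821-42721120, minus strand: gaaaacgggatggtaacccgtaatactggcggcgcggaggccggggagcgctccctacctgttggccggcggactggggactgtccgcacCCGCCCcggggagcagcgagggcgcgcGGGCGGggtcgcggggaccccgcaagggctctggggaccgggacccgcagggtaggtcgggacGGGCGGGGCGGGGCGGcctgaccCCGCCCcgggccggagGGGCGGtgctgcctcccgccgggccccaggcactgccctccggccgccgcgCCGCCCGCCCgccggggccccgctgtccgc

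The GC box occurred 1 time in the ST8SIA1 window, 4 times in that of ST3GAL5 and 9 times in that of A4GALT, and at least 1 time in the first-listed window of all 6 members. Of the first-listed windows of all 27305 genes in the table, 44.6% hold it. The 6 member windows were 60.3% to 81% G and C, against a median of 58.3% over all genes. Motifs of SOX and MITF factors were searched on both strands because SOX10 and MITF differed between the groups, MITF standing at 1129 ± 65.3 on the 231wCFry arrays and 399 ± 39.8 on the untransfected arrays. The letters ACAAAG (in 16% of all windows) and CACGTG (7.43%) were found in none of the 6 first-listed windows, and CATGTG (11.2%) in that of B4GALT5 alone. ACAAAG was found 1 time in the other window of A4GALT. A match or its lack in these windows describes letters only.

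At the entry step, UGCG, the glucosylceramide synthase, read 2060, 1921 and 2140 on the 231wCFry arrays and 1836, 1983 and 1968 on the untransfected arrays by its brightest probe set. The groups overlap. The log2 difference was 0.08 (95% interval -0.12 to 0.28, adjusted p = 0.47, limma), and its other 2 probe sets, at -0.11 and -0.06, did not pass either. The 3 intervals together run from -0.33 to 0.28, so they allow a change within that range in either direction.

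The lactosylceramide synthases, encoded by a pair of related genes, moved in opposite directions. B4GALT6 read 367, 507 and 411 on the 231wCFry arrays and 140, 140 and 203 on the untransfected arrays, a 2.67-fold higher mean. Every 231wCFry array lay above every untransfected one. The log2 difference was 1.34 (SE 0.16, adjusted p = 7.39e-05, limma), and a dimmer probe set rose by 0.61 (adjusted p = 0.0012), with signals of 70.1 ± 12.6 and 39.8 ± 0.53 (SD, n = 3 each). The remaining B4GALT6 probe sets were under the filter, with means of at most 7.93, and in the fit without it read 0.36 (adjusted p = 0.051) and 0.19 (adjusted p = 0.20).

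B4GALT5 read 1224, 1220 and 1264 on the 231wCFry arrays and 1840, 2167 and 1975 on the untransfected arrays, without overlap. Its log2 difference was -0.68 (SE 0.09, adjusted p = 1.76e-04, limma). The other B4GALT5 probe set did not pass, at 1354 ± 57.5 against 1514 ± 213 (SD, n = 3 each) and a difference of -0.15 (95% interval -0.41 to 0.11, adjusted p = 0.28), so the fall rests on 1 of 2 probe sets. The ratio of B4GALT6 to B4GALT5 within an array, as a difference of log2(signal + 16), was -1.51 ± 0.24 on the 231wCFry arrays and -3.52 ± 0.32 on the untransfected arrays, a difference of 2.02. An exact two-sided permutation test gave p = 0.1, the smallest that 3 arrays against 3 allow, also after adjustment over the 3 such ratios computed. The ratios were chosen after the values were seen, and neither gene overlapped between groups. This outcome was therefore fixed in advance and adds no support. The other 2 involved A4GALT and B4GALNT1, which read at or near background on the 231wCFry arrays, and are not given. Such a ratio shows unequal change of the 2 genes, not which of them is more abundant.

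**Figure D2:**
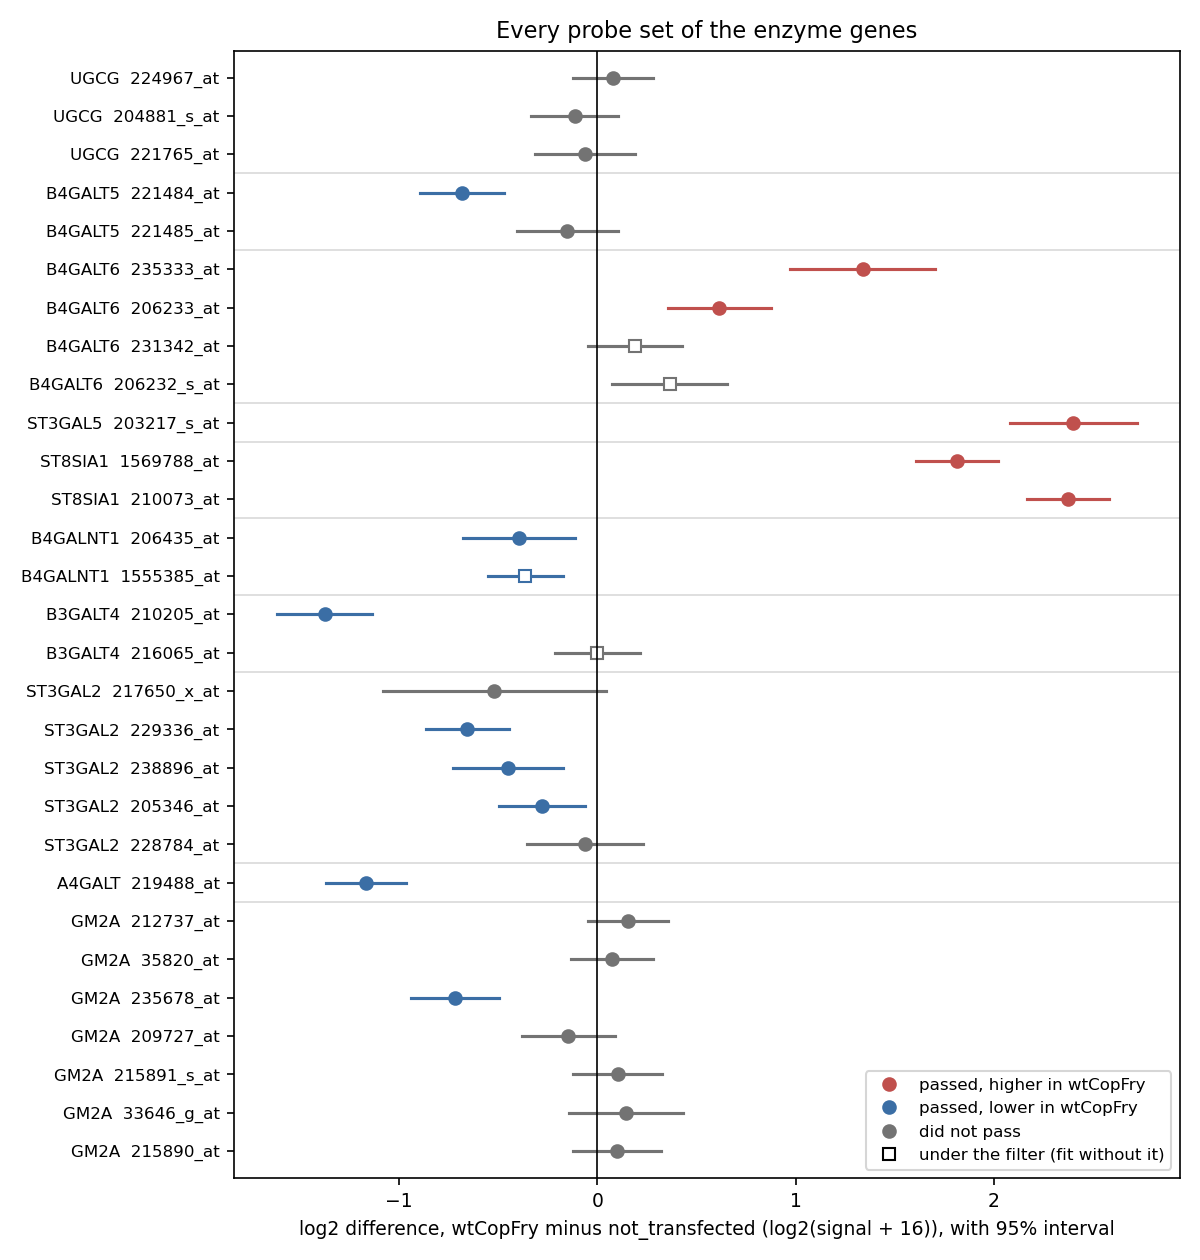
Log2 difference (231wCFry, titled wtCopFry, minus untransfected, on log2(signal + 16)) of all 29 member probe sets with its 95% interval, grouped by gene. Red points passed and were higher, blue passed and were lower, grey did not pass, and open squares were under the filter and come from the fit without it; both ST8SIA1 probe sets lie right of 1.8, and those of UGCG lie around 0.

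ST3GAL5, the GM3 synthase that opens the ganglioside branch, read 1599, 1633 and 1699 on the 231wCFry arrays. On the untransfected arrays it read 307, 365 and 236. The groups are far apart, and the highest untransfected array lies well below the lowest 231wCFry array. The log2 difference was 2.40 (SE 0.14, 95% interval 2.08 to 2.72, adjusted p = 5.79e-07, limma), and 6.14% of tested genes differed by as much in either direction. ST3GAL5 is read by 1 probe set, of the type whose probes can match several transcripts, so no other probe set checks it.

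ST8SIA1, the GD3 synthase, read 138, 118 and 127 on the 231wCFry arrays and 11.9, 12.2 and 10.9 on the untransfected arrays. Its untransfected signals lie around the median of all probe sets, which was 10.4 to 12.1 over the 6 arrays. The log2 difference was 2.38 (SE 0.09, 95% interval 2.17 to 2.58, adjusted p = 2.92e-08, limma). The other ST8SIA1 probe set read 82.7, 90.4 and 82.3 on the 231wCFry arrays and 14.6, 12.4 and 11.2 on the untransfected arrays. It rose by 1.82 (adjusted p = 1.88e-07), so both probe sets of this gene are higher without overlap.

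B4GALNT1, which makes GM2 and GD2 from the products of these enzymes, was dim in both groups. Its brighter probe set read 3.8, 3.6 and 5.6 on the 231wCFry arrays and 6.2, 14.1 and 12.5 on the untransfected arrays. The groups do not overlap, but 4 of the 6 values lie below the median signal of the whole array. It fell by 0.39 on the log2 scale (adjusted p = 0.020, limma), and the call was lost without 231wCFry replicate 1 (adjusted p = 0.057) or 2 (0.063), without untransfected replicate 2 (0.074) or 3 (0.061), and with a pseudocount of 64 (0.083). The second probe set, under the filter, read 2.7 ± 0.75 against 8.07 ± 1.79 (SD, n = 3 each) and fell by 0.36 in the fit without it (adjusted p = 0.0090).

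B3GALT4, which adds the galactose of GM1, read 3.6, 4.5 and 3.7 on the 231wCFry arrays and 29.5, 41.8 and 36.5 on the untransfected arrays. The 231wCFry values lie close to the background level of those arrays, 2.7 to 4.9, set by unspiked bacterial control probe sets. It had the largest fall among members on log2(signal + 16) by the brightest probe set, a log2 difference of -1.37 (SE 0.11, adjusted p = 3.50e-06, limma), which the added 16 makes smaller than the ratio of means of 9.14. That rank depends on the added 16. With a pseudocount of 1, A4GALT differed by -3.20 and B3GALT4 by -2.90, and the ratio of means of A4GALT was 13.8. The 231wCFry values of A4GALT lay at or below background. A second B3GALT4 probe set was not above background in either group.

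ST3GAL2, which sialylates GM1 and GD1b to GD1a and GT1b and also caps an extended globoside, was read by 5 probe sets, of which 3 fell and 2 did not pass. The clearest read 70.1, 76.5 and 65.1 on the 231wCFry arrays and 124.7, 123 and 113 on the untransfected arrays. It fell by 0.66 on the log2 scale (adjusted p = 2.10e-04, limma) without overlap. The 2 other falls were -0.45 (adjusted p = 0.0098) and -0.28 (adjusted p = 0.030). The brightest probe set, of a type prone to cross-hybridise, read 306, 304 and 172 on the 231wCFry arrays and 378, 494 and 267 on the untransfected arrays. These groups overlap and it did not pass (-0.52, 95% interval -1.08 to 0.04, adjusted p = 0.099). ST3GAL2 passed without such probe sets (-0.66, adjusted p = 2.15e-04), as the mean of its probe sets (-0.39, adjusted p = 0.0060) and, on the brightest, without untransfected replicate 3 (-0.74, adjusted p = 0.026).

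On the globoside branch, A4GALT, the Gb3 synthase, read 2.3, 1.5 and 1.4 on the 231wCFry arrays and 25.7, 24.6 and 21.3 on the untransfected arrays. All 3 values of the 231wCFry arrays lie at or below the background level of their array. A4GALT was therefore at least 6.76-fold lower against that level, with a log2 difference of -1.17 on log2(signal + 16) (SE 0.09, adjusted p = 3.25e-06, limma). It is read by 1 probe set.

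GM2A, the GM2 activator protein, was bright in both groups, and 6 of its 7 tested probe sets did not pass. The brightest read 808, 838 and 882 on the 231wCFry arrays and 751, 798 and 716 on the untransfected arrays. The groups do not overlap, but the log2 difference of 0.16 did not pass (95% interval -0.05 to 0.36, adjusted p = 0.16, limma). The next brightest read 645 ± 24.9 and 613 ± 41.5 (SD, n = 3 each, adjusted p = 0.52). One dimmer probe set disagreed: it read 44.5, 51 and 46.9 on the 231wCFry arrays and 91.2, 95.5 and 79 on the untransfected arrays, and fell by 0.72 (adjusted p = 1.64e-04). Which GM2A transcripts these probe sets read was not determined.

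**Figure D3:**
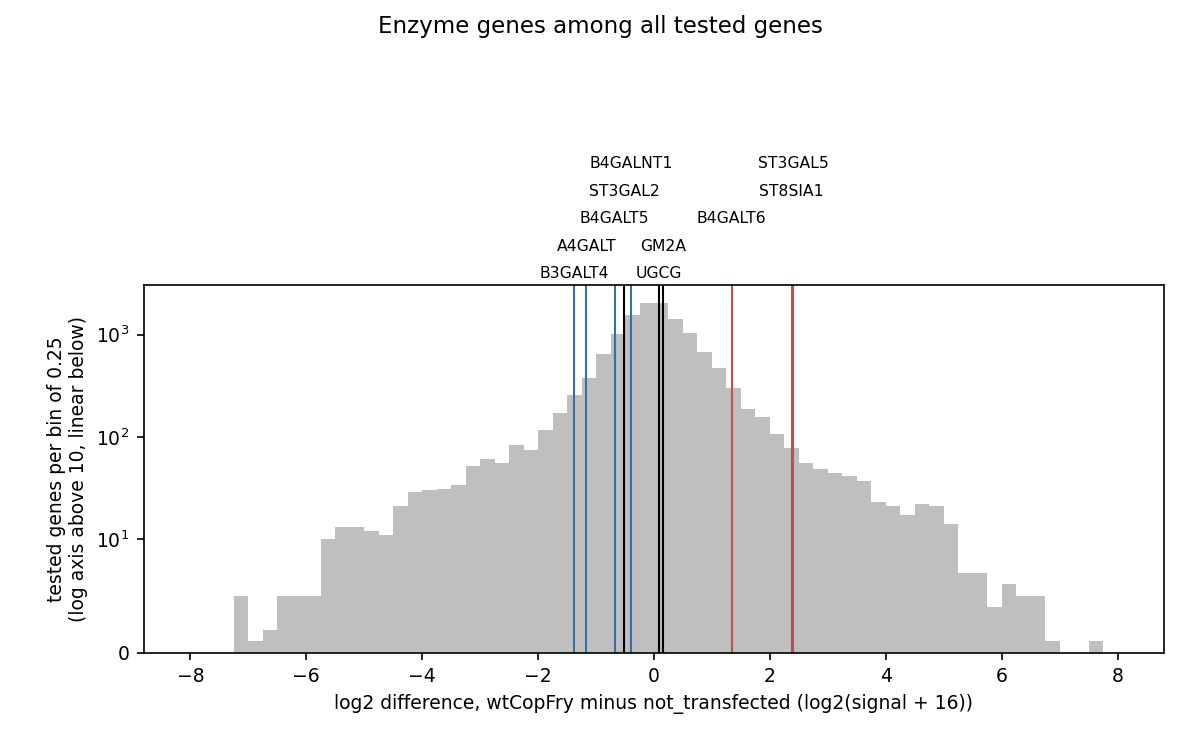
Distribution of the log2 difference (231wCFry, titled wtCopFry, minus untransfected) over the 13630 tested genes in bins of 0.25, with the vertical axis linear up to 10 genes and logarithmic above. Lines mark the 10 genes by their brightest probe set, red for higher, blue for lower and black where the test did not pass; ST8SIA1 at 2.38 and ST3GAL5 at 2.40 lie farthest out, at a size that 6.27% and 6.14% of tested genes reach.

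The genes nearest to the largest riser and the largest faller by distance over the 6 arrays on log2(signal + 16) were taken as a description. The rank of the riser also depends on the added 16. With a pseudocount of 1, ST8SIA1 differed by 3.34 and ST3GAL5 by 2.46. For ST3GAL5 they were LPCAT2, at 1786 on the 231wCFry arrays and 300 on the untransfected arrays, FAM133A (1638 and 319) and TSPAN13 (1625 and 341), at distances of 0.38, 0.43 and 0.46. For B3GALT4 they were FAM13C (2.87 and 40.5), TSKU-AS1 (3.73 and 36.4) and ADAMTS3 (3.37 and 38.6), at distances of 0.29, 0.31 and 0.35. With 2 groups this likeness mostly reflects the difference between the groups: 19.9% of 13629 other genes correlated with ST3GAL5 at r of 0.95 or more over the 6 arrays, and 18.6% with B3GALT4.

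The sialyltransferases outside the member list held the largest differences of the wider pathway, all by the brightest probe set of a gene. Of 16 read here, 11 were tested, of which 6 rose, 3 fell and 2 did not pass, with a median log2 difference of 0.58, against 34.1% higher, 33.1% lower and a median of 0.01 for all tested genes. In the fit without the filter, where 23.7% of all genes rose and 23.2% fell, 6 of the 16 rose and 2 fell, with a median of 0.05. ST6GAL1, which places sialic acid on N-glycans, read 728 ± 72.4 on the 231wCFry arrays and 14.6 ± 3.8 on the untransfected arrays (SD, n = 3 each), a log2 difference of 4.61 (adjusted p = 2.11e-09, limma). ST6GALNAC3, which sialylates the GalNAc of the ganglioside GM1b, read 253 ± 31 against 1.53 ± 0.23, at least 73.4-fold higher against background. ST6GALNAC2, which acts on O-glycans, rose by 3.26 and ST3GAL6 by 1.81, at adjusted p of at most 1.34e-06, and the other 3 tested ST3GAL6 probe sets rose too. ST6GAL1, ST6GALNAC3 and ST6GALNAC2 had no other tested probe set. The largest of the 3 falls was that of ST6GALNAC6, at 42.5 ± 6.65 on the 231wCFry arrays and 151 ± 22.4 on the untransfected arrays (-1.51, adjusted p = 6.45e-06, limma). ST8SIA2 and ST6GAL2 were not above background on the untransfected arrays, read 2.17 ± 1.9 and 2.3 ± 1.15 on the 231wCFry arrays, and did not pass.

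Among other galactosyltransferases and enzymes of the globo and lacto series, 2 of 8 tested rose, 2 fell and 4 did not pass, with a median of 0.08. Over all tested genes 34.1% rose and 33.1% fell. GBGT1, the human counterpart of the dog Forssman synthase, which in that species extends globoside, read 132 ± 16.8 on the 231wCFry arrays and 5.83 ± 3.49 on the untransfected arrays (SD, n = 3 each), a log2 difference of 2.77 (adjusted p = 1.40e-07, limma), while A4GALT, earlier on its branch, was at background. B3GNT5, which opens the lacto series from lactosylceramide, read 456 ± 12.2 and 1006 ± 50.3 and fell by 1.11 (adjusted p = 3.87e-06), but of its 2 other tested probe sets 1 rose and 1 fell. Of the galactosyltransferases that act on glycoproteins as well as glycolipids, B4GALT4 rose by 0.71 (adjusted p = 6.61e-05, limma), as did its other tested probe set. B4GALT3 fell by 0.52 (adjusted p = 0.0012), though its other tested probe set did not pass.

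Of 13 tested genes of ceramide synthesis, 1 rose, 5 fell and 7 did not pass, with a median log2 difference of -0.24, and the 3 others on the array were under the filter. These counts take enzymes and ORMDL regulators together, so they give no single direction for synthesis. The share that fell is near the 33.1% of all tested genes. The share that rose is below their 34.1%, and their median was 0.01. With an intensity trend 8 fell, and likewise with the mean over probe sets (limma). The ceramide synthases CERS2 and CERS6 read 618 ± 57.2 against 1083 ± 101 and 178 ± 14.2 against 269.97 ± 14.7 (SD, n = 3 each). DEGS1, the dihydroceramide desaturase, fell by 0.61 and ORMDL2, a regulator of serine palmitoyltransferase, by 0.41, and the adjusted p of these 4 genes was at most 0.0029 (limma). SPTSSB, a small subunit of that enzyme, was not above background on the 231wCFry arrays and did not pass (1.67 ± 2.2 against 3.33 ± 1.57). Of 4 tested genes for other fates of ceramide, 3 fell and 1 did not pass, where 33.1% of all tested genes fell. Without 231wCFry replicate 1, 2 fell, and with the mean over probe sets 4 fell. SGMS1, a sphingomyelin synthase, read 159 ± 8.4 against 346 ± 50.2, and the ceramide kinase CERK 137 ± 9.76 against 255 ± 8.77. SGMS2 fell by 0.30, and the adjusted p of these 3 genes was at most 0.016 (limma). UGT8, the galactosylceramide synthase, did not pass (-0.19, adjusted p = 0.12), though its other tested probe set fell.

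Among genes of sialic acid and nucleotide sugar supply, 5 of 9 tested rose, 1 fell and 3 did not pass, with a median of 0.30, where 34.1% of all tested genes rose and 33.1% fell. Without probe sets ending in _x_at or _s_at, where fewer probe sets were tested in all, 2 rose and 2 fell. The 2 largest rises were of genes that remove rather than supply sialic acid or its precursor: NPL, a sialic acid lyase, read 48 ± 1.55 on the 231wCFry arrays and 4.67 ± 1.04 on the untransfected arrays (adjusted p = 2.90e-07, limma), and RENBP, an epimerase of N-acetylglucosamine, 20.8 ± 3.38 and 0.90 ± 1.13, at least 6.01-fold higher against background. SLC35A2, the Golgi carrier of UDP-galactose, rose by 0.44 and NANP, a phosphatase of sialic acid synthesis, fell by 0.44, at adjusted p of at most 0.0035. Of 12 tested genes of glycolipid breakdown, 7 rose, 2 fell and 3 did not pass, with a median of 0.34, against the same 34.1% and 33.1% of all tested genes. Without probe sets ending in _x_at or _s_at, where fewer probe sets were tested in all, 3 rose, and without 231wCFry replicate 1, 1 fell. ARSA, the lysosomal sulfatase of sulfatide, read 67.4 ± 6.2 against 0.63 ± 0.31 (SD, n = 3 each) and was at least 19.6-fold higher against background, though its other tested probe set did not pass. SMPD1, the acid sphingomyelinase, read 594 ± 42.8 against 251 ± 23.7, though of its 2 other tested probe sets only 1 passed, as higher. HEXA, the subunit of the hexosaminidase that GM2A serves, read 872 ± 28.7 against 489 ± 22.3, though neither of its other 2 tested probe sets passed. GALC, the galactosylceramidase, read 246 ± 12.5 against 719 ± 121, and the adjusted p of these 3 genes was at most 3.30e-05 (limma). NEU2, a sialidase, was not above background on the 231wCFry arrays and did not pass (2.2 ± 1.25 against 4.0 ± 1.84).

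**Figure D4:**
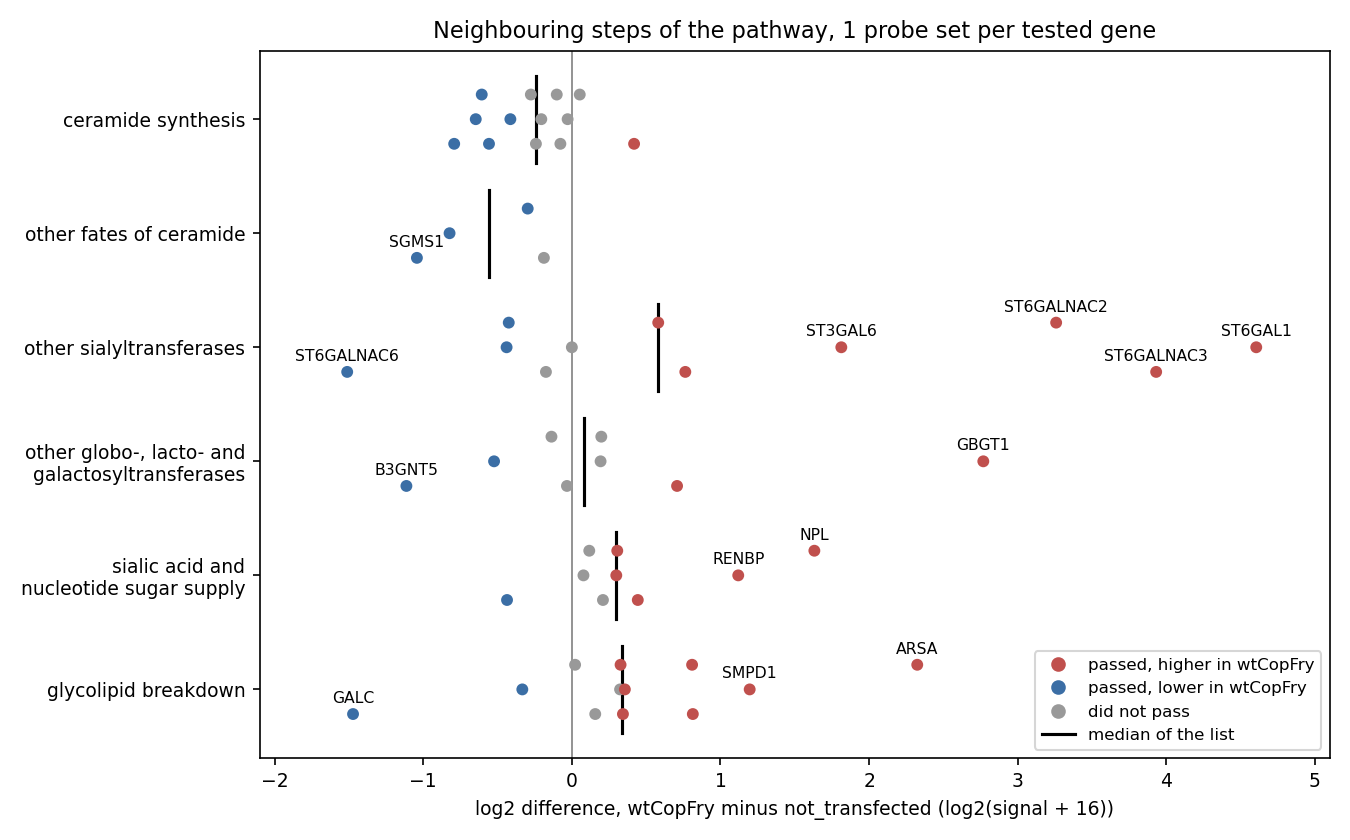
Log2 difference (231wCFry, titled wtCopFry, minus untransfected) of the tested genes in 6 lists of neighbouring pathway steps, 1 brightest probe set per gene; points are spread vertically for legibility only. Red points passed and were higher, blue passed and were lower, grey did not pass, black bars are list medians, and genes at 1 or more in size are named; ST6GAL1 at 4.61 lies farthest from 0.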

How the data were processed

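Total RNA of 6 samples was amplified from 40 ng each with a NuGEN Ovation kit, per the labels' protocols, and read on 1-colour Affymetrix arrays. The deposited values are linear signal intensity values that the authors made with MAS5, per the submitters' processing notes; version and scaling target: not given in the sources used here. Mismatch signal is subtracted in MAS5, so dim values run to 0. Outside the control probe sets, 41091 of 54613 named 1 gene in GEO's platform annotation, 1801 several and 11721 none; 41037 of the first matched a RefSeq gene table (GRCh38.p14), used only for names.

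Probe sets with a mean signal of at least 5.87 over all arrays, the 40th percentile, were tested on log2(signal + 16) with lmFit and eBayes of limma 3.58.1 (R 4.3.3), without covariates; those under it come from a fit of all 54613. A group was not above background where every array lay at or below the highest of 27 unspiked bacterial control probe sets on it (2.5 to 4.9); folds are then lower bounds, and a higher floor gives smaller ones. The fit was tested on simulated data. Figures were drawn with matplotlib 3.10.9 (Python 3.11.15).

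The members and lists were chosen with earlier results of these data known, and the within-array ratios after the values were seen. The text names all members, per list the up to 4 tested genes with the smallest p and genes not above background in 1 group alone, the 3 genes nearest to the largest riser and faller, and cell type markers. ST6GALNAC6 is named as well, as the largest fall among the other sialyltransferases. Listed genes that no probe set names alone were not analysed here. Alternatives were other pseudocounts, filters, normalization, probe choice, an intensity trend, a replicate block and leaving out each array.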

Additional observations from a re-analysis of the deposited data

How the results depend on the processing

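The number of arrays, 3 a group, limits the precision. ST8SIA1, ST3GAL5, B4GALT6, A4GALT, B3GALT4 and B4GALT5 kept direction and call under every alternative that gave them a value, with log2 differences of 1.34 to 3.34, 2.23 to 2.54, 0.98 to 1.5, -3.20 to -0.42, -2.90 to -0.56 and -0.74 to -0.42. ST3GAL5 had no value without probe sets ending in _x_at or _s_at, and A4GALT, B3GALT4 and B4GALNT1 had none with a 60th percentile filter or when a mean of 100 in either group was asked for. The mean over probe sets turned the sign of UGCG (-0.032) and GM2A (-0.041), neither of which passed. With a 60th percentile filter, 4 member probe sets were lower, since fewer were tested. Without probe sets ending in _x_at or _s_at, 13071 probe sets were called in all, against 20506, and the lists held 0 higher for ceramide synthesis, 0 lower for the other globo-, lacto- and galactosyltransferases, 2 higher and 2 lower for sugar supply and 3 higher for breakdown. Fewer probe sets were tested in that fit and their number is not given here, so lower counts there are not lower shares. With an intensity trend, 8 ceramide synthesis genes were lower, and with the mean over probe sets 8 were lower and 0 higher, with 1 lower for the other globo-, lacto- and galactosyltransferases. The trend fit called 20757 of the 32771 tested probe sets, and no count over all genes was made for the mean over probe sets. With that mean of 100, an alternative chosen after seeing the data, 12574 probe sets were called, with 3 member probe sets higher and 3 lower. The number tested at that mean is not given here either. Leaving out single arrays gave 1 to 2 lower breakdown genes, 1 without 231wCFry replicate 1. Deviations of same-numbered arrays correlated at 0.07, 0.07 and 0.19, and those of differently numbered arrays at -0.13 to 0.08. These values do not settle whether array numbers pair the samples, and the main fit leaves pairing out. The replicate block gave ST3GAL2 an adjusted p of 0.0038 (limma) at the same -0.52 and changed no other member gene's call. The cause of these moves was not tested unless stated.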
